A study of Mus musculus with 2 samples.

Results

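The members of this set were 42 mouse genes switched on rapidly by signals or stress, 29 of them immediate early genes and 13 heat shock genes, out of 32285 genes counted. They were chosen by gene symbol, with earlier NFKO over WT ratios in these libraries known, among them the low ratios of Hspa1a and Hspa1b, so the values below are given as a description. All 42 symbols were found in the count tables. The cells were Tomato+ epithelial cells sorted from whole small intestine of mice 4 to 6 weeks old, 4 to 5 mice pooled per library, in 1 library per genotype. The WT library came from Neurog3Cre mice carrying the Rosa26tdtomato reporter, and the library labelled NFKO from Neurog3Cre-FoxO1 f/f mice with the same reporter. Cre and reporter were thus present in both groups. Cre was driven by Neurog3, the transcription factor that commits gut progenitors to the endocrine lineage, so the sort holds cells with a history of Neurog3 expression and not the whole epithelium. With a single pooled library per genotype there is no replicate, no value below was tested, and genotype, sex, preparation and library cannot be told apart.

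Immediate early genes are transcribed within minutes of a growth factor, depolarisation or stress, without new protein synthesis. Many encode transcription factors, such as the Fos and Jun subunits of AP-1, and others encode inhibitors that end the response. Heat shock genes encode chaperones. The inducible ones are driven by the transcription factor HSF1, which binds repeats of the heat shock element when unfolded protein accumulates, while others are abundant in unstressed cells. Both groups are also known to be induced when tissue is dissociated into single cells, and no sample here was prepared without dissociation.

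Promoter sequence was available for 34 of the 42 members, as the 250 bases before each transcription start in RefSeq (GRCm38.p6). The pair of inverted heat shock units, GAANNTTC or TTCNNGAA on either strand, was present in 7 of the 9 heat shock members with sequence, in 4 of 25 immediate early members (Fosl2, Jun, Egr2 and Ccn1), and in 14.5% of all 27025 genes with sequence. The following stretches, read 5′ to 3′, are shown because their genes gave some of the lowest ratios between libraries (Hspa1a, Hspa1b, Hsph1), hold the densest match (Hspe1) or differ in kind (Dusp1). Capitals mark the matched motif.
Hspa1a (chr17:34972157-34972406, minus strand): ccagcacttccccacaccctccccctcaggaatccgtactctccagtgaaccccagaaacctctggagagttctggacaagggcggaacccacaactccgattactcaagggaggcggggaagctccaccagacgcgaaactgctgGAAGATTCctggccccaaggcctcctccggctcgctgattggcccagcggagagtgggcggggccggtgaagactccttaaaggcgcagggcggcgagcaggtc
Hspa1b (chr17:34959239-34959488, minus strand): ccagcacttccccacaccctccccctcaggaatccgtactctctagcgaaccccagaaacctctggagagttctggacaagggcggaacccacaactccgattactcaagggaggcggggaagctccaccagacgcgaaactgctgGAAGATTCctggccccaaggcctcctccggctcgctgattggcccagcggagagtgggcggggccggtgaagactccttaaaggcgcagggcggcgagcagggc
Hsph1 (chr5:149636337-149636586, minus strand): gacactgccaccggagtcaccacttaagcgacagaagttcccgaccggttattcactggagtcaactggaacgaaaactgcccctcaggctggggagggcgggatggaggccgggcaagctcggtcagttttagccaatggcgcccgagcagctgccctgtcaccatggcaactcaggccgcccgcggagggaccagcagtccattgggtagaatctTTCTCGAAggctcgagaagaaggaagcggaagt
Hspe1 (chr1:55087898-55088147, plus strand): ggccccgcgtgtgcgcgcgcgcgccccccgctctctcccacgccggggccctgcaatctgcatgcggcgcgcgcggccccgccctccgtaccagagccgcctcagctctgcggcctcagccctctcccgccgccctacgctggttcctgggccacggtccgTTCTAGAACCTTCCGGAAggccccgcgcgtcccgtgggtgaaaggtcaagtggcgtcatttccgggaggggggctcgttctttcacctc
Dusp1 (chr17:26508473-26508722, minus strand): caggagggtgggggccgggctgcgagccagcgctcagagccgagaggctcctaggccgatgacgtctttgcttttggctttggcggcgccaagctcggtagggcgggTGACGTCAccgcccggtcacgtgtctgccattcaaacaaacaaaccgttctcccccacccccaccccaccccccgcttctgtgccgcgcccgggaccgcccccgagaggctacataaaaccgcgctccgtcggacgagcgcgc
The 250 bases before Hspa1a and Hspa1b were 98.8% identical, and both hold the pair GAAGATTC with its first base 104 bases before the start. Hsph1 holds TTCTCGAA 33 bases before its start. Hspe1 and Hspd1, which encode the mitochondrial chaperonin and its partner, are transcribed in opposite directions from a shared stretch, so the capitals printed for Hspe1 are also the match of Hspd1. This match contains a run of 3 alternating heat shock units, a form found in 0.514% of genes. No pair was found before the start of Dnajb1. The Dusp1 stretch carries the cyclic AMP response element TGACGTCA, present in 1.77% of genes and in 3 members with sequence, Btg2, Dusp1 and Ppp1r15a. A CArG box was present before Egr2 and Zfp36, in 1.62% of all genes. A match is a description of letters in this window and not a binding site.

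Hspa1a (chromosome 17, 34969190 to 34972156) and Hspa1b (chromosome 17, 34956436 to 34959238) are neighbouring copies on the minus strand in GRCm38. Their longest open reading frames, of 1926 and 1929 bases, were 99.5% identical, whereas the sequence after the reading frame was 51.4% identical. The division of reads between the copies is therefore uncertain, and their sum is given beside each. By contrast the reading frames of Hspa1a and the constitutive Hspa8 were 74.7% identical, and those of Hsp90aa1 and Hsp90ab1 75.9%.

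After filtering, 3003 WT cells and 5292 NFKO cells remained, with medians of 16886 and 17039 unique molecular identifiers (UMIs, each 1 captured transcript) and of 4.48% and 3.19% mitochondrial UMIs. Cells were clustered with the 42 members left out, so that the members did not shape the clusters, and 18 of the 22 clusters were named from lists of marker genes. The named cells in WT and NFKO were 892 and 1897 enteroendocrine-like, 708 and 1415 goblet-like, 258 and 241 Paneth-like, 255 and 353 enterocyte-like, 88 and 172 tuft-like, 308 and 206 stem-like and 71 and 216 cycling cells. Foxo1, the floxed gene, stood at 11.6 CPM (UMIs per 1000000) in WT and 12.3 in NFKO over all cells, a ratio of 1.06 (95% counting interval 0.978 to 1.16), and at 25.6 and 22.1 CPM in enteroendocrine-like cells (0.864, 0.75 to 0.998). Since 3′ counts need not fall when an upstream exon is removed, this does not check the label. By Xist and Y-linked transcripts 2427 WT cells were typed male and 6 female, against 358 and 4353 cells of the other library. The libraries shared 4 barcodes among the kept cells. Intervals and floors throughout cover counting error only, and every ratio is NFKO over WT.

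Within the WT library the immediate early members were highest in enteroendocrine-like cells. Of the 29, 17 had their highest level there, 6 in goblet-like, 3 in enterocyte-like, 2 in tuft-like and 1 in Paneth-like cells. Fos, the founding AP-1 subunit, stood at 1915 CPM in enteroendocrine-like, 893 in goblet-like, 820 in cycling, 415 in stem-like, 361 in tuft-like and 299 in both enterocyte-like and Paneth-like cells. The spread from highest to lowest class was 6.4-fold, and the last 2 classes did not differ beyond their counting intervals. Nr4a1, an orphan nuclear receptor induced by depolarisation, stood at 101 CPM in enteroendocrine-like cells and 28 in Paneth-like cells, the next highest. The secreted factors followed another order. Edn2, an endothelin, and Lrg1, a leucine-rich glycoprotein, were highest in goblet-like cells at 56.7 and 85.8 CPM and stood at 3.59 and 2.12 CPM in enteroendocrine-like cells. In NFKO 18 of the 29 were highest in enteroendocrine-like cells.

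Among the heat shock members, in WT 7 of 13 were highest in enteroendocrine-like cells, 3 in cycling, 2 in stem-like and 1 in tuft-like cells. The chaperonin genes Hspd1 and Hspe1 stood at 855 and 952 CPM in stem-like cells, the class with the highest level of each, against 227 and 304 CPM in enteroendocrine-like cells. Hsp90ab1, the constitutive cytosolic HSP90, stood at 3073 CPM in enteroendocrine-like and 3038 in stem-like cells. The sum of Hspa1a and Hspa1b, the inducible HSP70 pair, ran from 794 CPM in cycling through 714 in enteroendocrine-like, 709 in goblet-like, 433 in enterocyte-like, 403 in stem-like and 201 in Paneth-like to 190 in tuft-like cells. Its levels in enteroendocrine-like and goblet-like cells overlapped in their counting intervals (699 to 731 and 696 to 722 CPM), as did those in Paneth-like and tuft-like cells. Low CPM in Paneth-like cells came with a marker list that took 440024 of every 1000000 UMIs in WT and 441459 in NFKO. In a class where a few transcripts fill so much of the library, fewer molecules per cell and a smaller share cannot be told apart.

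**Figure D1:**
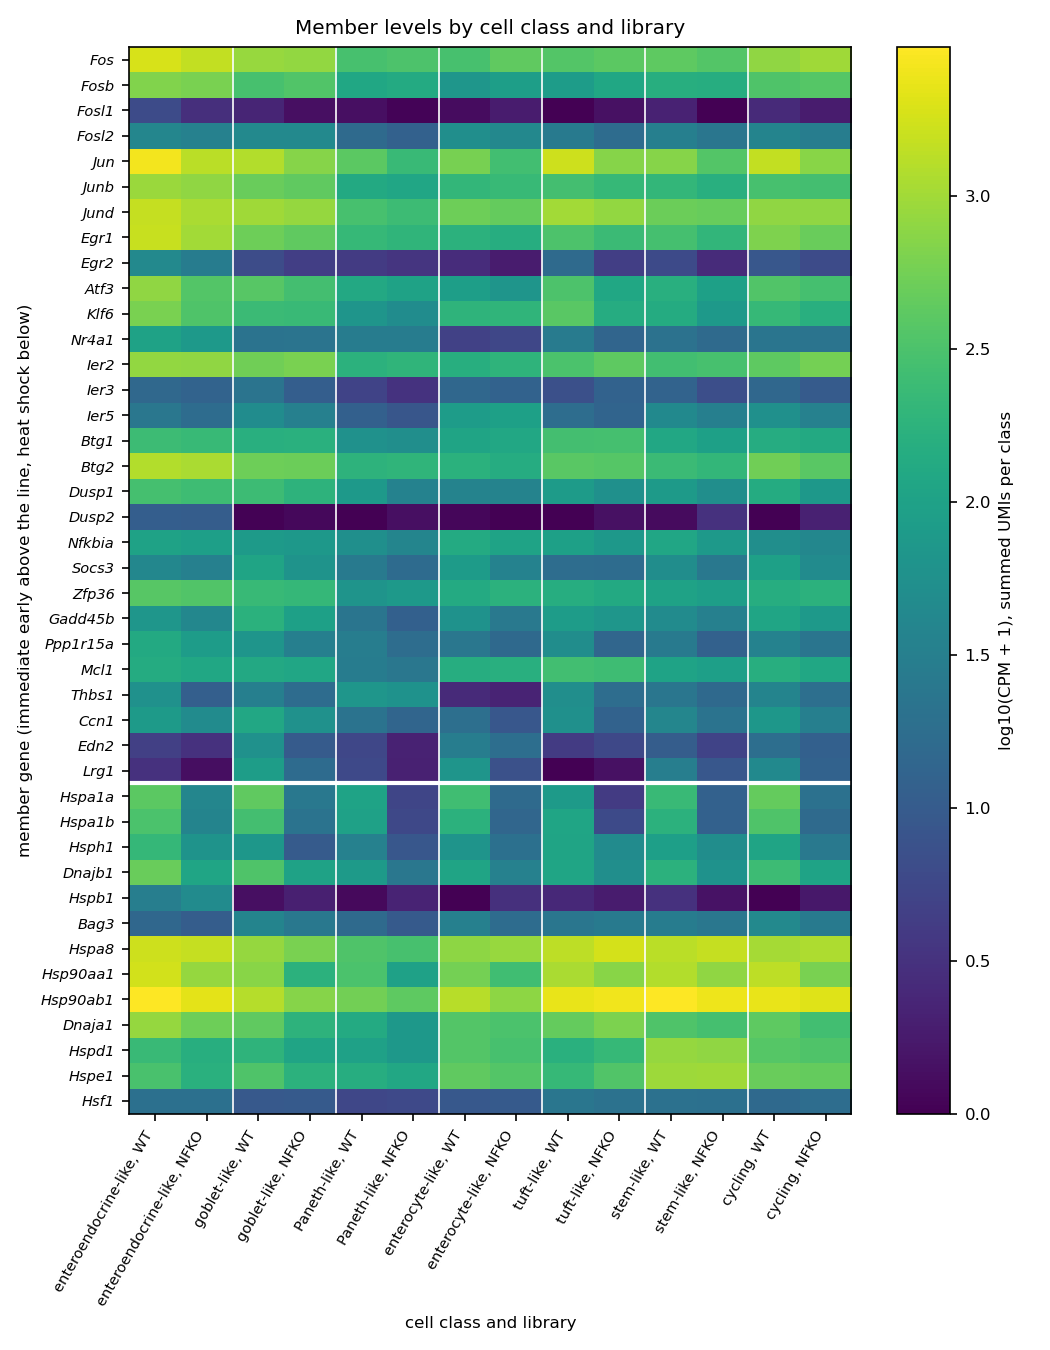
Level of each member in 7 cell classes, as log10(CPM + 1), for the WT library and the library labelled NFKO; rows are genes, columns are classes, and yellow marks a higher and purple a lower level. The Hspa1a and Hspa1b rows are darker in NFKO than in WT in all 7 classes, whereas the Hsf1 row looks alike in both.

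The stress-inducible chaperones had the lowest median ratio of all roles in each of the 3 main classes. In enteroendocrine-like cells 5 of the 13 heat shock members were at least 2-fold lower in NFKO (Hspa1a, Hspa1b, Hsph1, Dnajb1 and Hsp90aa1), beside 1.27% of the 11620 genes with at least 100 UMIs over both libraries. In goblet-like cells 6 of the 12 members with enough UMIs were (the same 5 and Dnaja1), beside 1.22% of 9750 genes, and in Paneth-like cells 5 of 12, beside 1.37% of 7865 genes. None was at least 2-fold higher in these classes, beside 2.2%, 3.01% and 1.72% of genes. The median log2 ratio of the heat shock members was -0.73, -1.12 and -0.85 in the 3 classes, where that of all genes was -0.03, -0.03 and 0.08. Because these members were listed with such values known, the shares are read as a description.

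The HSP70 pair, which refolds damaged proteins, differed most. Hspa1a stood at 402 CPM in WT and 39.2 in NFKO in enteroendocrine-like cells, a ratio of 0.0977 (0.0915 to 0.104). Its levels were 428 and 24 CPM in goblet-like cells (0.0562, 0.0518 to 0.0609) and 103 and 4.32 CPM in Paneth-like cells (0.0422, 0.0324 to 0.0541). Hspa1b followed closely. It stood at 313 and 36.5 CPM in enteroendocrine-like (0.117), 282 and 20.2 in goblet-like (0.0716) and 98.3 and 4.73 in Paneth-like cells (0.0481). As a sum the pair had ratios of 0.106 (0.101 to 0.111), 0.0623 (0.0587 to 0.0661) and 0.0451 (0.0377 to 0.0535). The low level in NFKO was found outside these classes too. The sum stood at 433 CPM in WT and 28.3 in NFKO in enterocyte-like, 190 and 8.15 in tuft-like, 403 and 22.5 in stem-like and 794 and 34.1 in cycling cells. Of the 19 clusters with at least 100 UMIs of Hspa1a, all 19 had a ratio of at most 0.5, from 0.0346 in 1 of the goblet-like clusters to 0.273 in the enteroendocrine-like cluster led by Sst.

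The partners of HSP70 were lower as well, by less. Dnajb1, the co-chaperone that hands substrates to HSP70, stood at 491 and 112 CPM in enteroendocrine-like cells (0.229, 0.219 to 0.239), 331 and 100 in goblet-like (0.303) and 79.7 and 23.4 in Paneth-like cells (0.293). Hsph1, the HSP110 nucleotide exchange factor, stood at 210 and 60.6 CPM (0.289, 0.271 to 0.307), 69.5 and 8.98 (0.129) and 33 and 7.77 (0.236). Dnajb1 was at least 2-fold lower in 20 of the 21 clusters with enough UMIs and Hsph1 in 17 of 19. The 2 remaining inducible members did not reach that size. Bag3, which couples HSP70 to autophagy, had ratios of 0.713, 0.645 and 0.593. Hspb1, a small heat shock protein, stood at 29.7 CPM in WT and 47.8 in NFKO in enteroendocrine-like cells (1.61, 1.43 to 1.83) and had under 100 UMIs in the other 2 classes. That ratio went with cluster make-up. Cluster 10, the enteroendocrine-like cluster with by far the most Hspb1, held 32 of 892 WT and 265 of 1897 NFKO cells, and within it Hspb1 stood at 500 and 513 CPM (1.03, 0.863 to 1.23). In the other 8 enteroendocrine-like clusters Hspb1 had under 100 UMIs each, and its ratio was below 1 in all 8.

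The cytosolic chaperones with a high basal level separated by gene. Hspa8, the constitutive HSP70, stood at 1657 and 1511 CPM in enteroendocrine-like cells (0.912, 0.896 to 0.928), 864 and 617 in goblet-like (0.714) and 336 and 298 in Paneth-like cells (0.886). Hsp90aa1, the inducible form of cytosolic HSP90 despite its high basal level, stood at 1755 and 871 CPM (0.496, 0.487 to 0.506), 744 and 174 (0.233, 0.226 to 0.242) and 312 and 98.8 (0.317, 0.299 to 0.335). Its close relative Hsp90ab1 stood at 3073 and 2213 CPM (0.72), 1257 and 720 (0.572) and 557 and 413 (0.741). In each of the 3 classes the ratio of Hsp90aa1 thus lay below that of Hsp90ab1, with counting intervals apart. Dnaja1, another HSP70 co-chaperone, lay between, at 865 and 520 CPM (0.602), 434 and 178 (0.411) and 136 and 70.7 (0.52). The enteroendocrine-like ratio of Hsp90aa1 sits at the 2-fold limit, its interval spans 0.5, and the call was lost under 3 alternatives (0.501 to 0.506).

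The mitochondrial chaperonin pair was lower by under 2-fold. Hspd1 stood at 227 and 152 CPM in enteroendocrine-like (0.67), 184 and 108 in goblet-like (0.588) and 97.2 and 70.7 in Paneth-like cells (0.727). Hspe1 stood at 304 and 161 CPM (0.528), 335 and 172 (0.513) and 147 and 122 (0.83). Hsf1, the regulator itself, differed little, with 18.6 and 18.1 CPM in enteroendocrine-like cells (0.975, 0.827 to 1.15), 8.42 and 8.68 in goblet-like (1.03, 0.831 to 1.28) and 4.58 and 4.86 in Paneth-like cells (1.06, 0.77 to 1.46). Each of these intervals includes 1 and limits a difference of Hsf1 transcript to the range given, in these libraries.

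**Figure D2:**
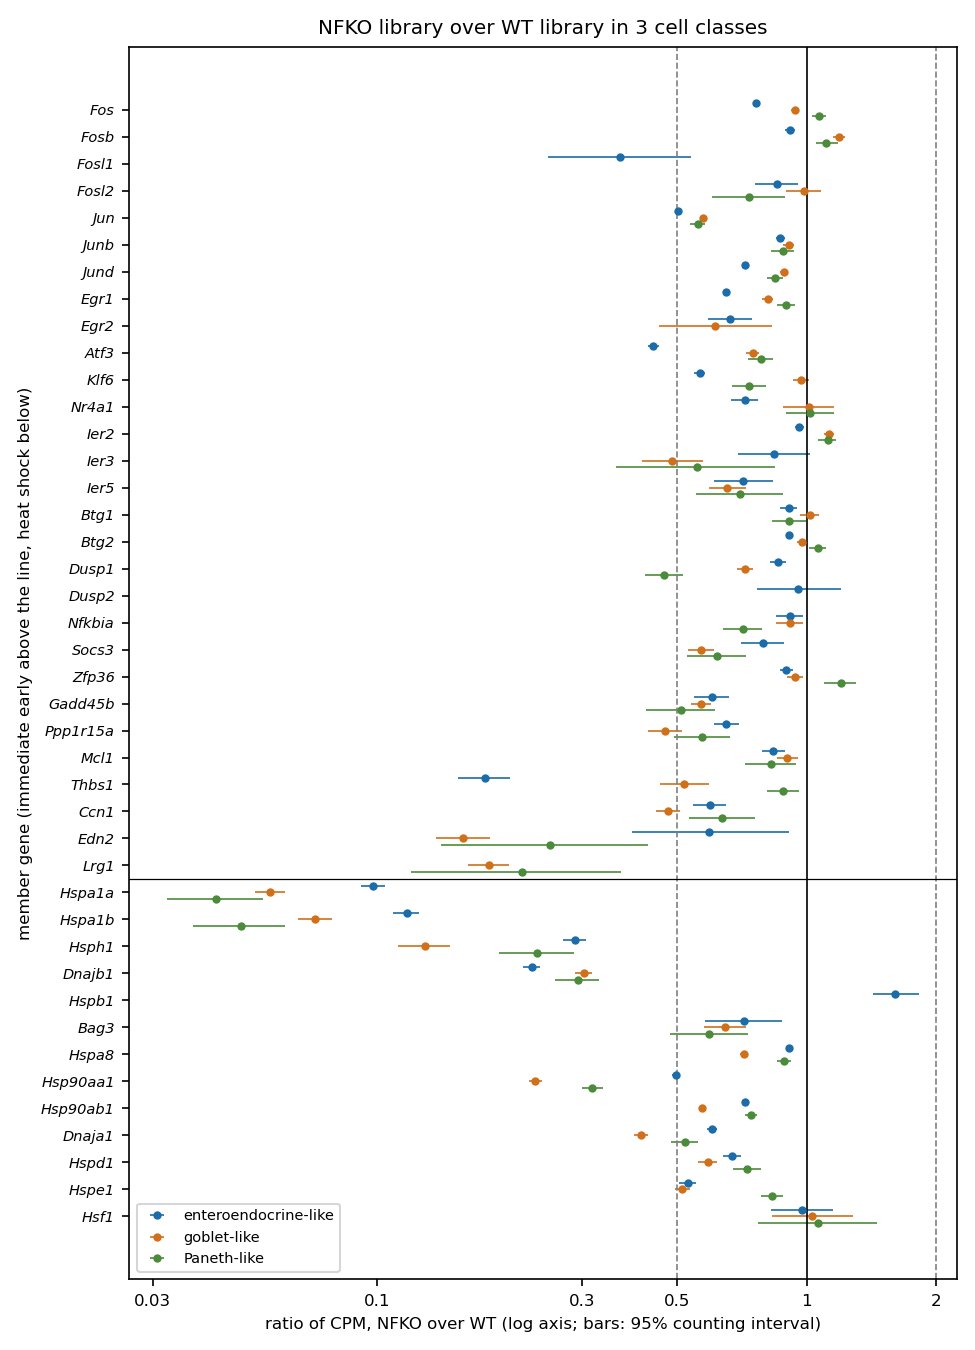
Ratio of CPM, NFKO over WT, for each member with at least 100 UMIs, in 3 cell classes (blue, enteroendocrine-like; orange, goblet-like; green, Paneth-like), on a log axis; bars are 95% counting intervals, the solid line is a ratio of 1 and the dashed lines are ratios of 0.5 and 2. Hspa1a, Hspa1b, Hsph1 and Dnajb1 lie left of the 0.5 line in all 3 classes, and most immediate early members lie between 0.5 and 1.

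The immediate early members differed less and unevenly. In enteroendocrine-like cells 3 of the 28 with enough UMIs were at least 2-fold lower in NFKO (Fosl1, Atf3 and Thbs1), beside the same 1.27% of genes. In goblet-like cells 5 of 27 were (Ier3, Ppp1r15a, Ccn1, which was at 0.606 in cluster 0 alone, Edn2 and Lrg1), beside 1.22%, and in Paneth-like cells 3 of 26 (Dusp1, Edn2 and Lrg1), beside 1.37%. No member was past 2-fold in this direction in all 3 classes. None was at least 2-fold higher. The median log2 ratios were -0.43, -0.30 and -0.40, beside -0.03, -0.03 and 0.08 for all genes. Ratios below 1 were found for 28 of 28, 23 of 27 and 20 of 26 members. In goblet-like cluster 0 alone these were 20 of 27, with a median log2 ratio of -0.39 beside 0.09 for all genes. The share of all genes below 1 was not counted. Members with under 100 UMIs were Lrg1 in enteroendocrine-like, Fosl1 and Dusp2 in goblet-like and Fosl1, Egr2 and Dusp2 in Paneth-like cells.

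Among the AP-1 subunits, Jun was lower in NFKO in every class, whereas Fos lay on either side of 1. Jun stood at 2685 and 1348 CPM in enteroendocrine-like cells (0.502, 0.494 to 0.51), 1235 and 710 in goblet-like (0.575) and 408 and 228 in Paneth-like cells (0.558). It was below 1 in 22 of 22 clusters, from 0.23 to 0.744. Fos stood at 1915 and 1459 CPM (0.762, 0.749 to 0.774), 893 and 840 (0.941, 0.921 to 0.961) and 299 and 321 (1.07, 1.03 to 1.11), and its ratio over the clusters ran from 0.454 to 2.4. Jund, the least inducible Jun protein, stood at 1520 and 1095 CPM (0.72), 970 and 857 (0.884) and 294 and 248 (0.843). The transcripts of the partner proteins of AP-1 therefore did not move by the same factor, with Jun below Fos by counting interval in each of the 3 classes.

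Of the 5 other transcription factors, Atf3, Egr1 and Klf6 are described in full. Atf3, a stress-induced repressor of the ATF family, stood at 814 and 357 CPM there (0.439, 0.427 to 0.452), 377 and 282 in goblet-like (0.749) and 128 and 99.7 in Paneth-like cells (0.781). Egr1, a zinc-finger factor induced by growth factors, stood at 1558 and 1011 CPM (0.649), 526 and 427 (0.811) and 214 and 192 (0.895). Klf6 stood at 605 and 341 CPM (0.563), 234 and 227 (0.969) and 65.8 and 48.4 (0.735). For these 3 genes the enteroendocrine-like ratio was the lowest of the 3 main classes, though in tuft-like cells Atf3 (0.362) and Klf6 (0.364) were lower still. Egr2 had ratios of 0.662 in enteroendocrine-like and 0.612 in goblet-like cells, with overlapping intervals.

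Of the 5 short response regulators, the 3 at higher levels had ratios near 1. Ier2, a short-lived nuclear protein, stood at 829 and 798 CPM in enteroendocrine-like (0.962), 536 and 607 in goblet-like (1.13) and 171 and 191 in Paneth-like cells (1.12). The antiproliferative genes Btg1 and Btg2 had ratios of 0.908 and 0.912, 1.02 and 0.973, and 0.911 and 1.06 in the same order, with Btg2 at 1233 CPM in WT and 1124 in NFKO enteroendocrine-like cells and Btg1 at 247 and 224. Ier2 was above 1 in 17 of 22 clusters. The other two were lower, Ier3 at 20.8 and 10.1 CPM in goblet-like cells (0.487) and Ier5 with ratios of 0.711, 0.653 and 0.7 in the 3 classes. These genes show that the immediate early members did not share a single ratio.

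Feedback inhibitors and survival factors lay between. Dusp1, the phosphatase that inactivates stress-activated MAP kinases, stood at 291 and 250 CPM in enteroendocrine-like (0.858), 245 and 176 in goblet-like (0.719) and 73.6 and 34.3 in Paneth-like cells (0.466, 0.42 to 0.515). Socs3, which ends cytokine signalling, had 107 and 60.5 CPM in goblet-like cells (0.567), and ratios of 0.79 and 0.618 in enteroendocrine-like and Paneth-like cells. Zfp36, which destabilises mRNA of inflammatory genes, had ratios of 0.897, 0.938 and 1.2, with 382 and 342 CPM in enteroendocrine-like cells. The growth arrest gene Gadd45b had 168 and 95.7 CPM in goblet-like cells (0.568), and 0.601 and 0.509 in enteroendocrine-like and Paneth-like cells. Ppp1r15a, which reverses the translational arrest of the integrated stress response, had 129 and 84.2 CPM in enteroendocrine-like (0.65), 65.5 and 30.6 in goblet-like (0.467, 0.426 to 0.512, and 0.507 to 0.52 under 3 alternatives) and 29.1 and 16.6 in Paneth-like cells (0.571). Mcl1, an anti-apoptotic BCL2 relative, was closer to equal at 0.837, 0.901 and 0.825, with 140 and 117 CPM in enteroendocrine-like cells. The secreted matrix protein Ccn1 had 78.6 and 46.7 CPM in enteroendocrine-like (0.594), 122 and 58 in goblet-like (0.475) and 20.1 and 12.8 in Paneth-like cells (0.636). Dusp1 was lowest in Paneth-like cells and Ppp1r15a and Ccn1 in goblet-like cells, so the order of the classes changed from gene to gene. In goblet-like cluster 0 alone, however, the Ccn1 ratio given above was not below its enteroendocrine-like ratio. Of the members at lower levels, Thbs1 had 57.5 and 10.2 CPM in enteroendocrine-like cells (0.178), Edn2 56.7 and 8.98 in goblet-like cells (0.158) and Lrg1 85.8 and 15.6 in goblet-like cells (0.182).

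Summed by role, the stress-inducible chaperones stood at 1458 CPM in WT and 306 in NFKO in enteroendocrine-like, 1147 and 178 in goblet-like and 329 and 50.2 in Paneth-like cells. The group of constitutive cytosolic chaperones, which here includes the inducible Hsp90aa1 and takes part of its difference from it, stood at 7350 and 5115, 3300 and 1689, and 1341 and 881 CPM. All immediate early members together stood at 14529 and 10363, 7678 and 6372, and 2519 and 2159 CPM. The list of other chaperones, genes of the endoplasmic reticulum, mitochondrion and cytosol that are not members, had median log2 ratios of 0.03, -0.15 and 0.05 over 34, 32 and 31 genes, with 1, 2 and 1 at least 2-fold lower and 1, 0 and 0 at least 2-fold higher, beside 1.27%, 1.22% and 1.37% of all genes lower and 2.2%, 3.01% and 1.72% higher. The lower ones were the DNAJ co-chaperones Dnajb4 in enteroendocrine-like, Dnajb4 and Dnaja4 in goblet-like and Dnaja4 in Paneth-like cells, and the higher one was the collagen chaperone Serpinh1 (3.77, from 10 and 101 UMIs), all named after their values were seen. The list of other immediate early genes had medians of -0.52, -0.64 and -0.47 over 33, 31 and 28 genes, with 2, 7 and 4 at least 2-fold lower and 0, 1 and 0 higher, beside the same shares of all genes. The higher one was the MAP kinase phosphatase gene Dusp6, with a ratio of 2.32 for goblet-like cells. Of both lists, Areg, an EGF receptor ligand, was the gene past 2-fold in all 3 classes, at 81.4 and 14.3, 193 and 69.1, and 11.4 and 4.52 CPM.

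The other classes gave less even counts. At least 2-fold lower in NFKO were 5 of 12 heat shock and 5 of 24 immediate early members in enterocyte-like cells, beside 1.82% of genes, 3 of 12 and 6 of 26 in stem-like cells, beside 1.21%, and 5 of 12 and 4 of 25 in cycling cells, beside 1.09%. In tuft-like cells, the smallest class by UMIs, these were 2 of 8 and 3 of 16, beside 2.58%, and the median log2 ratio of the heat shock members was 0.26, above that of all genes at 0.13. None of the members was at least 2-fold higher in any of these 4 classes, beside 4.48%, 1.02%, 1.44% and 4.95% of genes. Over all cells, where the mix of classes differs between libraries, 4 of 13 heat shock and 3 of 29 immediate early members were at least 2-fold lower, beside 1.51%, and Hspb1 was the 1 member at least 2-fold higher, beside 6.32%. The heat shock members past 2-fold over all cells were Hspa1a, Hspa1b, Hsph1 and Dnajb1.

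Goblet-like cells fell into 2 clusters of unlike make-up. Cluster 0 held 618 WT and 616 NFKO cells and cluster 1, which is shallower, 90 and 799. Within cluster 0 the sum of Hspa1a and Hspa1b stood at 729 and 62.9 CPM (0.0863, 0.081 to 0.0918), Hsp90aa1 at 762 and 225 (0.295) and the constitutive Hspa8 at 885 and 818 (0.923). The median ratio of Hspd1 and Hspe1 was 0.774 in cluster 0, against 0.55 in the whole class. For all heat shock members the median log2 ratio was -0.75 in cluster 0, against -1.12 in the class. There Fos stood at 907 and 1048 CPM (1.16), Jun at 1245 and 879 (0.706) and Atf3 at 388 and 399 (1.03). At least 2-fold lower there were 6 of 12 heat shock and 4 of 27 immediate early members, beside 1.33% of genes, and none was at least 2-fold higher, beside 1.33%. In cluster 0, then, the ratio of the HSP70 pair stayed well below those of Fos and Jun. The median ratio of the 5 stress-inducible chaperones counted there was 0.175, with 4 of them at least 2-fold lower, and that of 6 AP-1 genes was 0.966. When the 42 members were kept among the genes used for clustering, most goblet-like cells of the 2 libraries separated, with 595 WT and 25 NFKO cells in 1 cluster and 156 and 737 in another. The first was led by Edn2, Areg, Lrg1, Hspa1a and Hspa1b among its top genes.

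Per cell, the immediate early members took a median of 1.45% of UMIs in WT and 1.02% in NFKO enteroendocrine-like cells, 0.801% and 0.572% in goblet-like cells and 0.321% and 0.19% in Paneth-like cells. The cells of 1 class differed widely. From the 10th to the 90th percentile the immediate early share ran from 0.354% to 2.52% in WT and from 0.325% to 2% in NFKO enteroendocrine-like cells. The heat shock members took 0.897% and 0.55%, 0.452% and 0.127%, and 0.241% and 0.12%. For the stress-inducible chaperones the medians were 0.115% and 0.0177%, 0.0983% and 0.00691%, and 0.0332% and 0.00387%. The goblet-like medians mix clusters 0 and 1, whose make-up differs between libraries. In cluster 0 alone the WT and NFKO medians were 0.829% and 0.775% for immediate early members and 0.493% and 0.285% for heat shock members. Those of the stress-inducible chaperones were 0.112% and 0.0134%. In enteroendocrine-like cells the 90th percentile of NFKO, 0.0829%, lay below the WT median, so the distributions overlapped only in part. Thinned to 2000 UMIs per cell, a UMI of Hspa1a or Hspa1b was found in 51.6% (48.3% to 55%) of 891 WT and 9.11% (7.85% to 10.5%) of 1877 NFKO enteroendocrine-like cells, and in 57.7% and 5.46% of 707 and 1374 goblet-like cells. Without thinning these were 73.7% and 23.7%, and 81.2% and 17.1%. The exact binomial intervals are given in brackets. No class was taken to lack these genes, so the shares include any UMIs from RNA free in the suspension, and the lowest thinned share was 2.63% of 152 NFKO tuft-like cells.

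The few NFKO cells with many molecules carried much of the remaining HSP70 signal. In NFKO goblet-like cells 27 cells, 1.91% of the class, held 50% of the UMIs of the pair, against 131 cells or 18.5% in WT. In enteroendocrine-like cells these were 69 cells (3.64%) and 131 cells (14.7%). For Fos the share of cells holding 50% of UMIs was 24.9% in NFKO and 22.8% in WT enteroendocrine-like cells. This share is also lower for a gene with sparse counts, and counts were not matched. The pair was found in 17.1% of NFKO and 81.2% of WT goblet-like cells, whereas Fos had many UMIs in both libraries. The part of sparse counts in the concentration was not tested.

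Within WT, cells with a high immediate early share also had a high heat shock share. Pearson's r of the log shares was 0.67 over 892 enteroendocrine-like, 0.65 over 708 goblet-like and 0.85 over 258 Paneth-like cells. In NFKO r was 0.39 over 1897, 0.28 over 1415 and 0.59 over 241 cells. Cells of a class share a library and a sort, and in WT Paneth-like cells both shares were negatively correlated with depth (r of -0.61 each), so these are descriptions. In WT and NFKO goblet-like cells the heat shock share had r of 0.30 and 0.48 with depth, and the immediate early share -0.08 and 0.02. In enteroendocrine-like cells these were 0.25 and 0.10, and 0.04 and -0.16. The part of depth in the r of the shares was not tested. At an equal depth of 5000 UMIs, Fos and Jun correlated at 0.71 in WT and 0.64 in NFKO enteroendocrine-like cells, and at 0.68 and 0.66 in goblet-like cells. Fos and Hsp90aa1 had r of 0.41 and 0.06, and 0.60 and 0.23. Hsp90aa1 averaged 9.02 and 4.33 UMIs per thinned enteroendocrine-like cell but 0.818 in NFKO goblet-like cells, where counts are sparse. At this depth the AP-1 genes varied together to a similar degree in both libraries, whereas Fos and Hsp90aa1 had the lower r in NFKO in both classes.

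**Figure D3:**
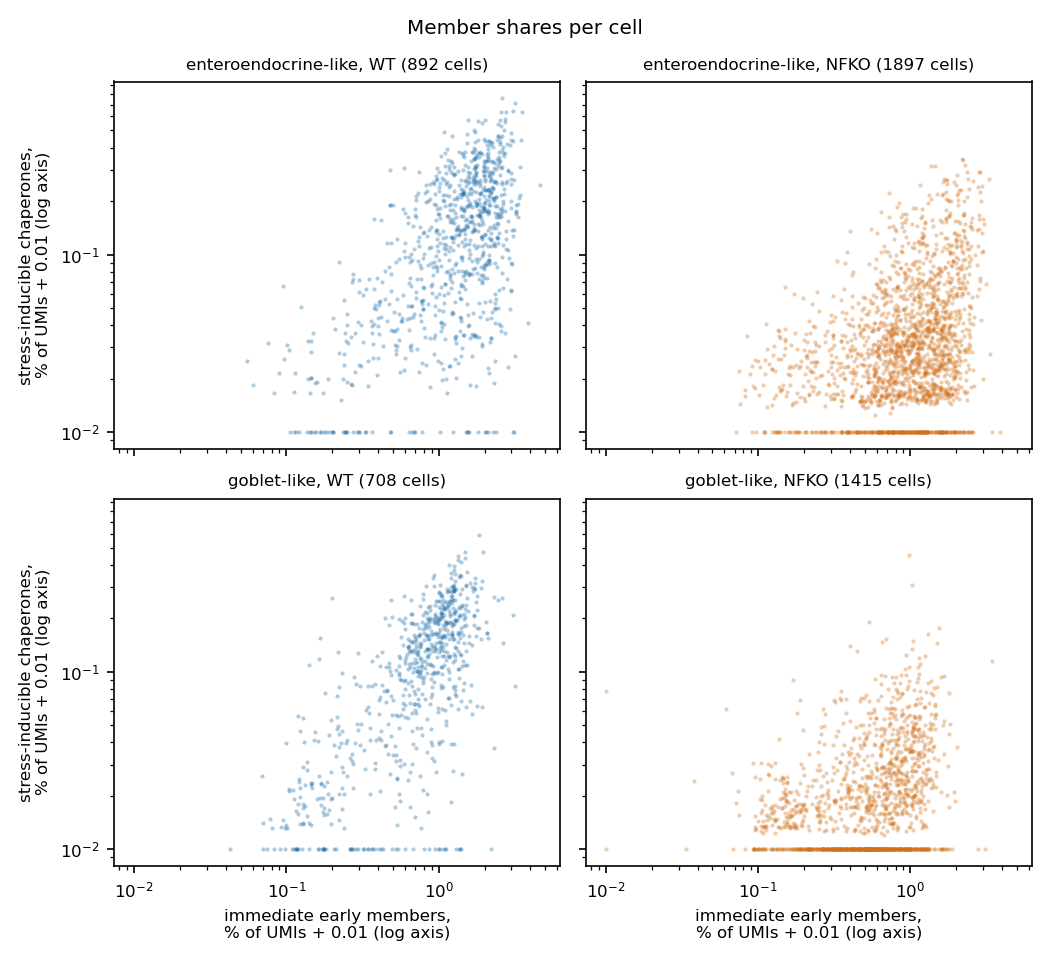
Each point is a cell of the WT library or of the library labelled NFKO, with the immediate early share of its UMIs on the x axis and the stress-inducible chaperone share on the y axis, both in % plus 0.01 on log axes, for 892 and 1897 enteroendocrine-like and 708 and 1415 goblet-like cells. WT cells rise along the diagonal (r of the log shares 0.59 and 0.70), and most NFKO cells lie lower on the y axis at the same x (0.32 and 0.29). The median chaperone share of NFKO cells was 0.0177% in enteroendocrine-like and 0.00691% in goblet-like cells, near or below the added 0.01. Many NFKO points thus lie at or near the floor, and r is not compared between libraries.

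Genes most like Hspa1a and Fos were ranked by the Pearson r of log CPM over 649 WT goblet-like cells. These cells had at least 5000 UMIs each and were not thinned, so their depths differed. Among 4428 genes, non-members most like Hspa1a included Hspa5 (0.42), Rhob (0.39), Herpud1 (0.37) and Actg1 (0.35). Those most like Fos included Rhob (0.56), Areg (0.48), Ccnl1 (0.47) and Klf2 (0.46). Rhob, a small GTPase gene, thus stood on both lists. In the 1164 NFKO goblet-like cells the highest r of a non-member with Hspa1a was 0.21. Genes in these rankings needed a mean of at least 0.5 UMI per cell at full depth. Thinned to 5000 UMIs, the same NFKO cells averaged 0.0945 UMIs of Hspa1a, so its NFKO ranking is not read further.

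The difference of the HSP70 pair was found at each level of the immediate early share. Among enteroendocrine-like cells with under 0.5% of UMIs from immediate early members, the sum of Hspa1a and Hspa1b stood at 179 CPM in 129 WT cells and 44 in 329 NFKO cells (0.246, 0.206 to 0.294). With 0.5% to 1% it stood at 525 and 92.8 CPM (0.177), and with 1% or more at 867 and 75.2 CPM (0.0867, 0.0811 to 0.0927). In goblet-like cells the ratios over the same bins were 0.105, 0.0723 and 0.0602, and in goblet-like cluster 0 alone 0.185, 0.0935 and 0.0637. Hsph1 departed from the pair in 1 of these bins. Among enteroendocrine-like cells with under 0.5% it stood at 41.9 and 47.6 CPM (1.14, 0.859 to 1.52), against 0.616 with 0.5% to 1% and 0.247 with 1% or more. In goblet-like cells the Hsph1 ratios over the bins were 0.358, 0.16 and 0.0927, and in goblet-like cluster 0 alone 0.592, 0.207 and 0.0981. Those in Paneth-like cells were 0.399, 0.136 and 0.0851. WT levels of the pair thus climbed with the immediate early share by more than NFKO levels did.

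Mitochondrial content, which differed between libraries, was examined in the same way. Over all kept cells the ratio of the pair was 0.0936 in cells with 0% to 5% mitochondrial UMIs, 0.0668 with 5% to 10%, 0.0654 with 10% to 15% and 0.115 with 15% to 25%. The ratios of Jun over these bins were 0.767, 0.54, 0.538 and 0.524, and those of Fos 1.19, 1.01, 1.08 and 1.08. These pool classes whose mix differs between libraries. In enteroendocrine-like cells alone the Fos ratios were 0.74, 0.919, 1.01 and 0.903, and in goblet-like cells 0.983, 0.801, 0.827 and 0.932. The pair had ratios of 0.104, 0.117, 0.0868 and 0.0932 in enteroendocrine-like cells and 0.0643, 0.0437, 0.0419 and 0.239 in goblet-like cells, where the last bin held 45 WT and 34 NFKO cells. Barcodes left out for over 25% mitochondrial UMIs, 35.6% of WT and 17.3% of NFKO barcodes, showed the same order, with Hspa1a at 346 and 25.3 CPM of their non-mitochondrial UMIs. Over all kept cells, which pool these bins, the ratio of the pair was 0.0864.

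**Figure D4:**
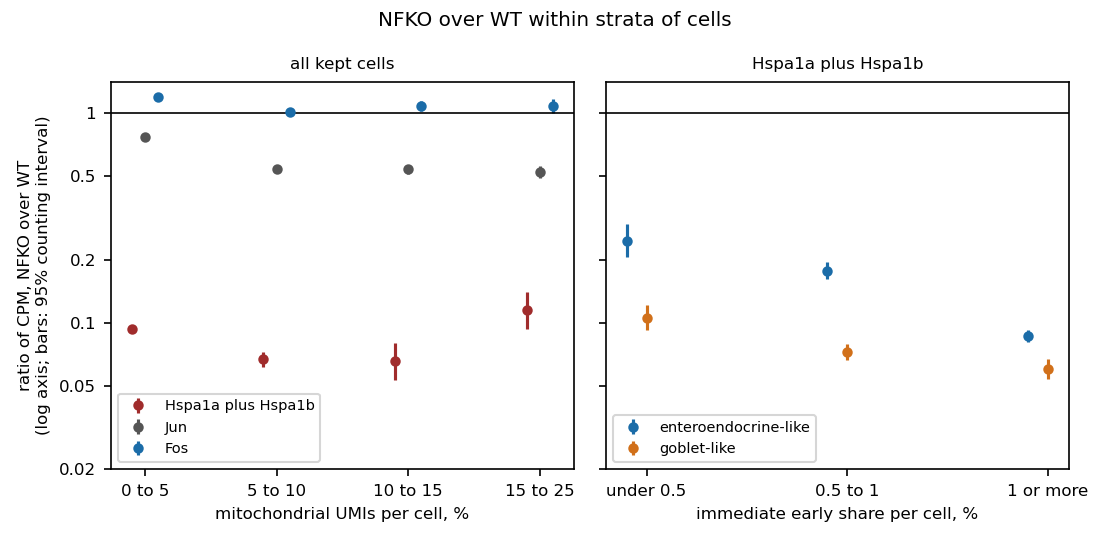
Ratio of CPM, NFKO over WT, within strata of cells, on a log axis with 95% counting intervals: on the left for Hspa1a plus Hspa1b, Jun and Fos over all kept cells by mitochondrial percent, on the right for Hspa1a plus Hspa1b by the immediate early share of the cell. The pair lies between 0.0654 and 0.115 on the left while Fos stays at or above 1, and on the right its ratio is lower in cells with a higher immediate early share.

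The sexes of the pooled mice differed between the libraries, and the male-typed cells allow a comparison within a sex. Over all classes the sum of Hspa1a and Hspa1b stood at 516 CPM in 2427 male-typed WT cells, 30 in 358 male-typed NFKO cells and 46.7 in 4353 female-typed NFKO cells. Against male-typed WT cells the ratio was 0.0583 (0.0515 to 0.0657) for male-typed and 0.0907 (0.0879 to 0.0935) for female-typed NFKO cells. Atf3 stood at 319, 132 and 279 CPM and Fos at 756, 696 and 947 CPM in the same 3 sets. In enteroendocrine-like cells, where cell type is held to 1 class, Atf3 stood at 826, 191 and 373 CPM. Male-typed and female-typed NFKO cells thus differed from each other, and the HSP70 pair was low in both.

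Further measures moved with the libraries. The transcript Gm42418, which overlaps ribosomal RNA sequence, stood at 34639 CPM in WT and 9337 in NFKO enteroendocrine-like cells and at 21652 and 11289 in goblet-like cells. Ribosomal protein transcripts took 15.5% of UMIs in WT and 11.5% in NFKO goblet-like cells. Goblet markers took 161742 and 246930 CPM of goblet-like cells. The part of RNA quality, composition and preparation in the member values was not tested, and with 1 library per genotype it cannot be told apart from genotype.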

How the data were processed

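Single cells were profiled with 10x Genomics 3′ chemistry. The deposited files hold raw UMI counts per gene and cell barcode, made by the authors with Cell Ranger 5.0.1 on mm10 per the submitters' processing notes, with 5051 WT barcodes (90002878 UMIs) and 7540 NFKO barcodes (124300388 UMIs). Barcodes were kept from 500 genes and 1000 UMIs upwards if mitochondrial UMIs did not exceed 25%, and the highest doublet scores (scanpy 1.11.5), 0.8% of barcodes per 1000, were removed. Seurat 5.3.0 (R 4.3.3) clustered the cells on 2000 variable genes without the members, 30 principal components, 20 neighbours and resolution 0.8. A class qualified for a cluster where at least 3 of its markers were at least 2-fold above the other cells and present in at least 10% of the cluster's cells, and the class with the highest such share of its list gave the name. A cluster stayed unnamed where its 10 leading genes held more markers of another class, or where its median depth was far below that of its libraries (3 times or more) and they held under 2 of its own. Cycling was used only where no other class qualified.

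UMIs were summed per class and library and given as CPM. Poisson, Clopper-Pearson and conditional binomial 95% intervals (scipy 1.17.1) cover counting error only. A gene was counted with at least 100 UMIs over both libraries and called past 2-fold. The self-test on simulated counts called 200 of 200 changed genes in enteroendocrine-like cells. Its changes were set well beyond 2-fold and its counts varied by counting error only. It therefore checks the calculation and says nothing of variation between libraries.

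The members and lists were chosen with earlier results of these data known. Members with at least 100 CPM in 1 of the 3 main classes are described in full where past 2-fold or among the 3 highest of their role, 26 in all. The cells are Neurog3-lineage cells, and no authors' cell annotation was used here. Splits by mitochondrial share, immediate early share and sex type, cluster 0 alone and thinning to 5000 UMIs were added after seeing the data. Some genes are not reported here.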

Additional observations from a re-analysis of the deposited data

Results flagged for a closer look

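A pair of members differed in direction between classes by their counting intervals. The criterion, an interval wholly at or below 0.8 in 1 class and wholly at or above the reciprocal of 0.8 in another, was chosen after seeing the data. The difference between classes was not tested, since each group is 1 library.

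Fos was higher in NFKO in enterocyte-like cells, at 299 CPM in WT and 433 in NFKO (ratio 1.45, 1.37 to 1.53), and lower in enteroendocrine-like cells, at 1915 and 1459 CPM (0.762, 0.749 to 0.774). The enterocyte-like class joins clusters 8 and 15, with 124 and 131 WT but 240 and 113 NFKO cells, and its enterocyte markers took 3255 CPM in WT and 27721 in NFKO. Fos stood at 507 and 478 CPM in cluster 8 (0.942, 0.838 to 1.06) and at 275 and 389 CPM in cluster 15 (1.42, 1.32 to 1.52). The part of the cluster mix in the class value was not tested.

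Hspe1 was higher in NFKO in tuft-like cells, at 215 and 350 CPM (1.63, 1.36 to 1.96), and lower in enteroendocrine-like cells, at 304 and 161 CPM (0.528, 0.505 to 0.552), and in goblet-like cells, at 335 and 172 CPM (0.513, 0.493 to 0.534). The tuft-like cells numbered 88 in WT and 172 in NFKO, with median depths of 5980 and 14639 UMIs and median mitochondrial shares of 12.2% and 4.84%. Other chaperones were higher there too. The median log2 ratio in tuft-like cells was 0.55 for Hspd1 and Hspe1 together and 0.45 for 27 other chaperones, beside 0.13 for all genes.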

How the results depend on the processing

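No paired analysis was possible because each genotype has 1 library, and no library could be left out. Of 75 alternative values 59 stayed within their limits and 16 moved. A 1.5-fold limit in place of 2-fold gave 10 heat shock members in goblet-like cells, and 11 immediate early members in enteroendocrine-like, 11 in goblet-like and 9 in Paneth-like cells. Male-typed cells alone, only 131, 102 and 10 of NFKO in the 3 classes, gave 7, 9 and 5 immediate early members. The 5 goblet-like immediate early members became 3 with the members kept in clustering, with another clustering seed and with no mitochondrial limit (Ccn1, Edn2 and Lrg1 each time). The 3 Paneth-like ones became 1 (Dusp1) with another seed and with no doublets removed, and 6 by the mean of per-cell CPM. Except where the limit itself changed, the cause was not tested. The share of all genes past the limit was not counted under these alternatives. These counts of members therefore have no base to be set beside and are not read as results about the members. Thinned to 2000 UMIs, the median heat shock share moved from 0.897% to 0.85% in WT enteroendocrine-like, from 0.127% to 0.15% in NFKO goblet-like and from 0.12% to 0.1% in NFKO Paneth-like cells, where 1 UMI is a large step. Over 650 alternative ratios of the 26 members described in full, 219 moved by more than their counting interval, 0 reversed and 28 crossed the 2-fold limit. Calls ended for Hsp90aa1 in enteroendocrine-like cells and for Ppp1r15a and Ccn1 in goblet-like cells (Ccn1 0.606 in cluster 0 alone), and the other crossings were new calls, among them Jun and Hspe1 in goblet-like cells. By over 1.5 times 16 moved, 15 of them with male-typed cells alone. Classes with few cells or UMIs limit the tuft-like, cycling and male-typed values most.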
